A study of Mus musculus with 6 samples.

Results

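The genes described are 8 core liver transcription factor genes, Hnf4a, Foxa1, Foxa2, Foxa3, Cebpa, Cebpb, Onecut1 and Prox1, chosen by symbol for their known role. No measured value was part of the rule, but the choice was made with earlier results of these data known. All 8 were found among the 22180 genes measured, each through a single probe set. The cells were wild type primary hepatocytes of adult male C57Bl/6 mice, cultured in William's medium without serum. Treatment lasted 4 h, with 2 µM GW4064 in 3 samples and with the solvent DMSO in 3 samples, and every sample was run on a 1-colour Affymetrix array (MoGene-2_0-st). Levels are RMA values on the log2 scale, and a change is the GW4064 mean minus the DMSO mean, so that a change of 1 is a 2-fold difference. GW4064 is a small molecule made to activate FXR, the nuclear receptor for bile acids.

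Hepatocyte identity is held by a small network of transcription factors that bind one another's genes. HNF4A is a nuclear receptor that occupies the promoters of many genes for secreted proteins and metabolic enzymes in liver, and its loss in mouse liver is known to disturb lipid and bile acid handling. The FOXA proteins are forkhead factors that bind compacted chromatin early in liver development, the C/EBP proteins are leucine zipper factors of metabolism and the acute phase, ONECUT1 (HNF6) carries a cut domain and a homeodomain, and PROX1 is a homeodomain protein known as a corepressor of nuclear receptors, HNF4A among them. Bile acids acting through FXR induce the repressor SHP, which is known to bind HNF4A and other nuclear receptors, and the comparison asks which of the network's own genes differ after a short exposure to an FXR agonist.

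The Hnf4a gene is known to start at an upstream promoter, used mainly outside adult liver, and at a downstream promoter used in adult liver. The RefSeq promoter table (GRCm38.p6) holds a window for each on the plus strand of chromosome 2. The 250 bases before each start are printed because a single probe set reads Hnf4a here, with no annotation of the start it covers. The printed stretches lie 40048 bases apart. Capitals mark the ONECUT motif ATTGATT on either strand, picked after the windows had been read.
Hnf4a upstream start, chr2:163506607-163506856: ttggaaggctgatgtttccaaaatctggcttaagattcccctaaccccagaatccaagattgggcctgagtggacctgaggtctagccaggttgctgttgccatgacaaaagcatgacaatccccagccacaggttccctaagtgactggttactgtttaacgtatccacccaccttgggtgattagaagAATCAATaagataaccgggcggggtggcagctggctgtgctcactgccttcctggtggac
Hnf4a downstream start, chr2:163546905-163547154: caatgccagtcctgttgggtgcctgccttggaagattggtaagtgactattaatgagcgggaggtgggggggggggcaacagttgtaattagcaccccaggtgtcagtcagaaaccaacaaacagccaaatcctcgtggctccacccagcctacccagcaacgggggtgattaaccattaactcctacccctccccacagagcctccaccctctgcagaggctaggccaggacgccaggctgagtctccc
The upstream window holds 1 match to ATTGATT, which 2.61% of all 32851 windows of this length hold. The downstream window holds no match to it. All 8 genes have a window in the table, 12 windows in all. Of these, Foxa2 also had a match to this motif, and Foxa1 had the only match to the forkhead motif TGTTTAC (3.17% of all windows). Other motifs searched on both strands had no exact match in the 12 windows. These were the FXR inverted repeat AGGTCANTGACCT (0.00609% of all windows), its half-site AGGTCA (14.0%), the HNF4 motif CAAAGTCCA (0.384%) and the C/EBP motif TTGCNNAA (9.56%). The inverted repeat contains the half-site, so their matches overlap.

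The arrays carried the signal of hepatocytes and of the agonist. Of 7 measured hepatocyte markers, 5 (Alb, Apoa1, Ttr, Cps1 and Hnf4a itself) lay above the 90th percentile of all genes, where levels of different probe sets can be placed only roughly. Some markers of other liver cells were dim and others were not. Below the median of all genes lay 5 of 7 Kupffer cell and macrophage markers and 5 of 7 stellate cell and fibroblast markers. So did 3 of 7 endothelial markers and 2 of 5 cholangiocyte markers. The rest lay above it, Sox9 at percentile 87.5, Acta2 at 75.2, Cdh5 at 73.5 and Lyve1 at 70.1 among them. The hepatocyte markers Serpina1a and Asgr1 lay at 78.4 and 62.1. Cd68, a lysosomal gene that is not restricted to macrophages, was the 1 marker of another cell type above the 90th percentile. The FXR targets Abcb11, the bile salt export pump, and Nr0b2, which encodes SHP, were raised 8.47-fold and 5.18-fold with limma adjusted p-values of 3.70e-05 and 1.17e-04. In bulk samples of this kind, fewer cells of a type and less RNA per cell cannot be told apart. Nothing in the labels says whether a sample is a separate culture dish or animal beyond the 3 preparations, so the tests measure the spread between these arrays.

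No gene of the network passed the threshold over all genes. The limma count was 0 of 8 at an adjusted p under 0.05, with and without the replicate number as a block, where 0.0496% of all genes were called without the block and 0.0812% with it. Before adjustment, a p under 0.05 was given to 1 of 8 in either fit, Hnf4a, against 5.66% of all genes without the block (2.6% higher and 3.06% lower) and 9.13% with it. Hnf4a was also the single member whose 2 groups did not overlap, higher with GW4064, a pattern that 4.58% of all genes showed. The other 7 had changes between -0.21 and 0.073, with overlapping groups.

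Hnf4a (probe set 17379268) measured 9.28, 9.65 and 9.41 in GW4064 replicates 1, 2 and 3, against 8.78, 8.99 and 8.93 in DMSO replicates 1, 2 and 3. The lowest GW4064 array stood above the highest DMSO array, and the order of the replicate numbers was the same in both groups. The mean was 9.45 ± 0.18 with GW4064 and 8.90 ± 0.11 with DMSO (SD, n = 3 each). The change was 0.55 (SE 0.12), a 1.46-fold difference with a 95% interval of 1.22 to 1.76. Its limma adjusted p over all genes was 0.393, and 0.151 with the replicate block, so the difference did not pass although its own interval lay above 1. The same-numbered pairs gave 0.51, 0.65 and 0.49, all higher, as in 12.6% of all genes. Leaving out arrays or pairs moved the change between 0.45, without GW4064 replicate 2, and 0.63, without GW4064 replicate 1. By p it ranked 68 of 22180 genes without the block and 60 with it.

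**Figure D1:**
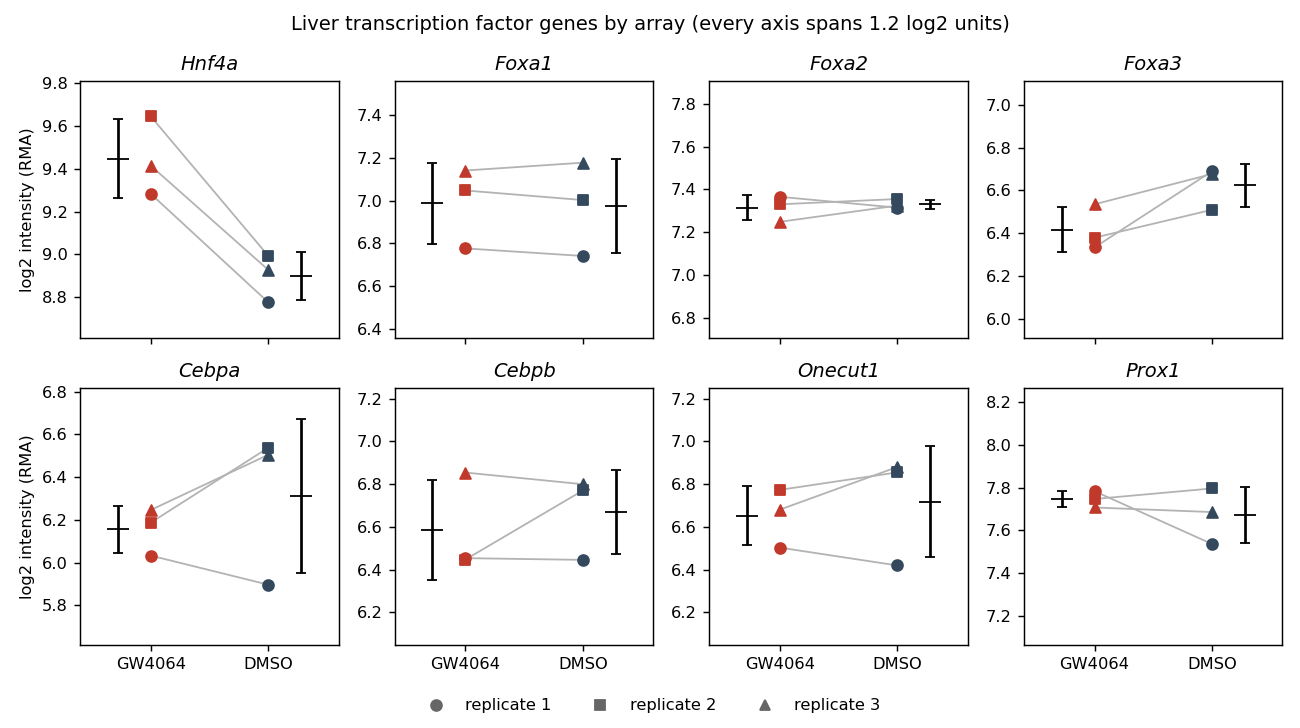
Log2 intensity (RMA, vertical axis) of the 8 genes in every array, GW4064 in red left of DMSO in dark blue, with grey lines joining same-numbered replicates and black bars for mean ± SD (n = 3). For Hnf4a the GW4064 arrays sit between 9.28 and 9.65 and the DMSO arrays between 8.78 and 8.99, while the groups of the other 7 genes overlap.

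The 3 FOXA genes had small changes. Foxa1 (probe set 17281337) measured 6.78, 7.05 and 7.14 with GW4064, against 6.74, 7.002 and 7.18 with DMSO. Each replicate number kept nearly the same level in both groups, and replicate 1 was the lowest in both. The change was 0.015 (95% interval -0.30 to 0.33, adjusted p = 0.999), and its sign turned in 4 of the settings that left out arrays or pairs.

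Foxa2 (probe set 17392561), which in mouse liver is also known for its part in bile acid transport and the fasting response, had the smallest spread in DMSO of the 8 genes, at 7.31, 7.36 and 7.32, beside GW4064 values of 7.37, 7.33 and 7.25. All 6 arrays lay within a narrow band. The change was -0.017 with a 95% interval of -0.22 to 0.18 (adjusted p = 0.998), which in fold terms is 0.861 to 1.13. Its sign turned with quantile normalization and without GW4064 replicate 3 or pair 3.

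Foxa3 (probe set 17487149), known in mice for its part in keeping glucose levels during a long fast, measured 6.33, 6.38 and 6.53 with GW4064, against 6.69, 6.51 and 6.68 with DMSO. It was the only member with a lower value in all 3 pairs (-0.36, -0.13 and -0.14), a pattern that 18.6% of all genes showed. GW4064 replicate 3 stood just above DMSO replicate 2, so the groups overlapped. The change was -0.21 (SE 0.10, 95% interval -0.44 to 0.020), with an adjusted p of 0.926, and 0.548 with the block. With arrays or pairs left out it ranged over -0.27 to -0.14.

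Differences between FOXA genes were also taken within each array, which removes only a shift of an array that both genes share equally. Foxa1 minus Foxa3 was 0.44, 0.67 and 0.61 in GW4064 replicates 1, 2 and 3, against 0.052, 0.49 and 0.50 in the DMSO arrays, a difference of 0.22 between the groups. Foxa2 minus Foxa3 was 1.03, 0.95 and 0.71 with GW4064, against 0.63, 0.85 and 0.65 with DMSO, a difference of 0.19. Both were higher with GW4064 in every same-numbered pair, and both share the Foxa3 values. The exact two-sided permutation p was 0.3 and 0.2 (0.6 each after Benjamini-Hochberg over the 4 ratios tested), where 3 against 3 arrays cannot give less than 0.1. Foxa1 minus Foxa2 differed by 0.031 (exact permutation p = 0.8). With arrays left out the differences against Foxa3 kept their sign, at 0.075 to 0.30 and 0.13 to 0.29.

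**Figure D2:**
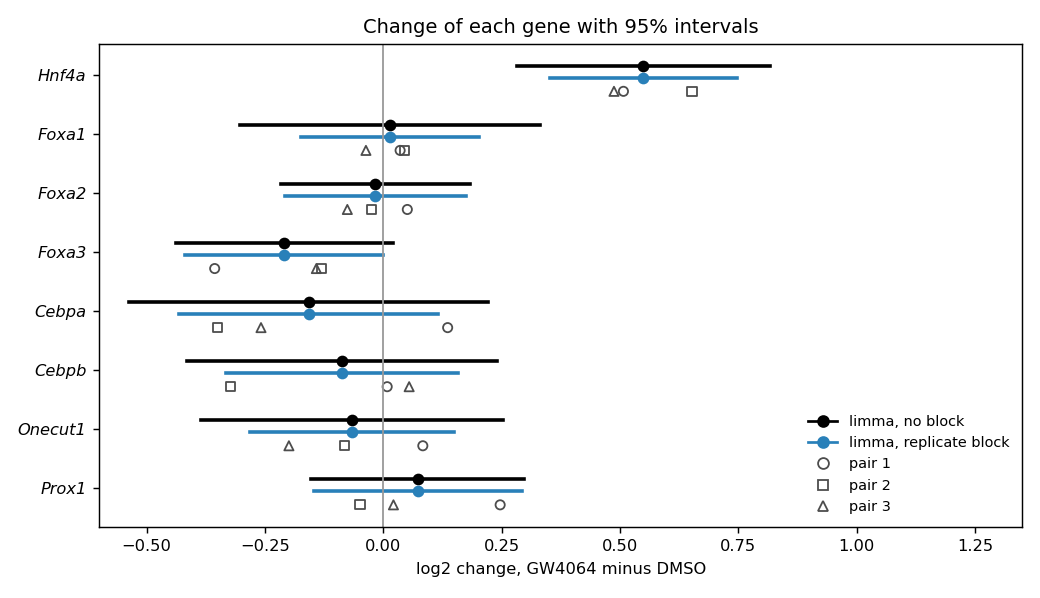
Log2 change of each gene, GW4064 minus DMSO (horizontal axis), with limma's 95% interval without the block in black and with the replicate block in blue, and open symbols for the 3 same-numbered pairs. Hnf4a stands at 0.55 with both intervals above 0, and the black intervals of the other 7 genes include 0.

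Neither C/EBP gene passed the test. Cebpa (probe set 17476728), a factor of hepatocyte differentiation and growth arrest, measured 6.03, 6.19 and 6.25 with GW4064, against 5.90, 6.54 and 6.50 with DMSO. DMSO replicate 1 was the lowest of all 6 arrays, and the other DMSO arrays were the highest. The change was -0.16 (SE 0.17, 95% interval -0.54 to 0.22, adjusted p = 0.998), and the pairs gave 0.14, -0.35 and -0.26. Without DMSO replicate 1 it was -0.37, more than 1.5 times its size with all arrays, and over all arrays or pairs left out it ranged from -0.37 to -0.045. None of these passed.

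Cebpb (probe set 17379938), which responds to cytokines and cAMP in liver, measured 6.45, 6.45 and 6.85 with GW4064, against 6.45, 6.77 and 6.80 with DMSO. Pair 2 had a difference of -0.32 while pairs 1 and 3 had 0.0082 and 0.055. The change was -0.087 (SE 0.14, adjusted p = 0.998). The ratio of Cebpa to Cebpb, Cebpa minus Cebpb on the log2 scale, was -0.42, -0.26 and -0.61 with GW4064, against -0.55, -0.23 and -0.29 with DMSO, which differed by -0.071 (exact permutation p = 0.6). The ratio therefore overlapped between the groups.

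Onecut1 (probe set 17519357) measured 6.50, 6.77 and 6.68 with GW4064, against 6.42, 6.86 and 6.88 with DMSO. Replicate 1 was lowest in both groups, and the pairs gave 0.083, -0.082 and -0.20. The change of -0.066 (SE 0.14, 95% interval -0.38 to 0.25, adjusted p = 0.998) was smaller than the spread within either group. Prox1 (probe set 17230960) measured 7.78, 7.75 and 7.71 with GW4064, against 7.54, 7.80 and 7.69 with DMSO. The GW4064 arrays lay close together, and DMSO replicate 1 was the low one. The change was 0.073 (SE 0.099, 95% interval -0.15 to 0.30, adjusted p = 0.998), and the pairs gave 0.25, -0.049 and 0.021.

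The 3 replicate-number means, each over 1 GW4064 and 1 DMSO array, spanned more than the size of the treatment change for 6 of the 8 genes. They did so in 78.8% of all genes, so the members' share was near that of all genes. The span was 0.41 for Cebpa, 0.40 for Foxa1, 0.38 for Cebpb and 0.35 for Onecut1, and the median over all genes was 0.19. Hnf4a (span 0.29, change 0.55) and Foxa3 (span 0.16, change -0.21) were the exceptions. Replicate 1 was the lowest array of both groups for Hnf4a, Foxa1, Cebpa and Onecut1, 4 of 8 genes against 11.4% of all genes, a pattern looked for after the values were seen. What set replicate 1 apart was not tested.

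The genes whose profile over the 6 arrays came closest to Hnf4a were looked up among 10366 genes above the median level, leaving out Hnf4a itself and symbols of predicted genes, RIKEN clones, small RNAs, and olfactory and vomeronasal receptors. The measure was the root mean square difference of log2 values after each gene was centred on its own mean. The 5 closest were Zfp108 (0.055), a zinc finger gene, Slc8b1 (0.057), of the mitochondrial sodium and calcium exchanger, the homeobox gene Meis1 (0.065), Hs6st1 (0.071), a heparan sulfate sulfotransferase gene, and the kinase gene Stk17b (0.074). Their changes lay between 0.45 and 0.52, and each was higher in all 3 pairs, as the measure demands of a gene that matches Hnf4a. None passed over all genes, with limma adjusted p-values of 0.318 to 0.660. The other members of the network lay farther off, from 0.26 for Prox1 to 0.41 for Foxa3.

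Around the network, 30 other liver transcription factor genes were measured. Of these, 2 rose and none fell past the threshold over all genes, where 0.0496% of all genes were called. In all, 16 were higher and 14 lower, where 44.6% of all genes were higher and 55.4% lower. The median change was 0.013, beside -0.016 over all genes. Before adjustment, limma gave 3 higher and 5 lower with p under 0.05, beside 2.6% and 3.06% of all genes. The rises were Nr0b2 and Nr1i2. Nr0b2 measured 6.68, 7.11 and 6.87 with GW4064, against 4.58, 4.49 and 4.46 with DMSO. Nr1i2, which encodes the xenobiotic receptor PXR, measured 8.44, 8.71 and 8.58 with GW4064, against 6.38, 7.31 and 6.87 with DMSO (change 1.72, SE 0.20, limma adjusted p = 0.0352). Every GW4064 array of both genes stood above the DMSO arrays, as in 4.58% of all genes. Nr0b2 passed under each of the 17 alternatives. Nr1i2 missed the threshold when any array except DMSO replicate 2 was left out, without each pair and over all probe sets (adjusted p = 0.0648 to 0.588 in these settings).

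The receptor gene of the agonist went the other way without passing. Nr1h4, which encodes FXR, measured 7.13, 7.08 and 6.94 with GW4064, against 7.81, 7.78 and 7.73 with DMSO, a change of -0.72 (SE 0.094, limma adjusted p = 0.0535, and 0.0618 with the block). It passed with a filter at the median of level (0.0434), with a trended variance prior (0.0282) and with a robust one (0.0498). Ppara, the fatty acid receptor gene, had -0.48 (SE 0.12, adjusted p = 0.601). The paralogues of network members, named after their values were seen, had changes of -0.062 for Hnf4g, -0.073 for Onecut2, -0.12 for Cebpd and -0.17 for Cebpg, none past the threshold. Hnf4g was dim, at percentile 18.8 of all genes, where Cebpd, Onecut2 and Cebpg lay at 58.6, 72.6 and 89.7. Whether Hnf4g and Hnf4a differed in their change was not tested.

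**Figure D3:**
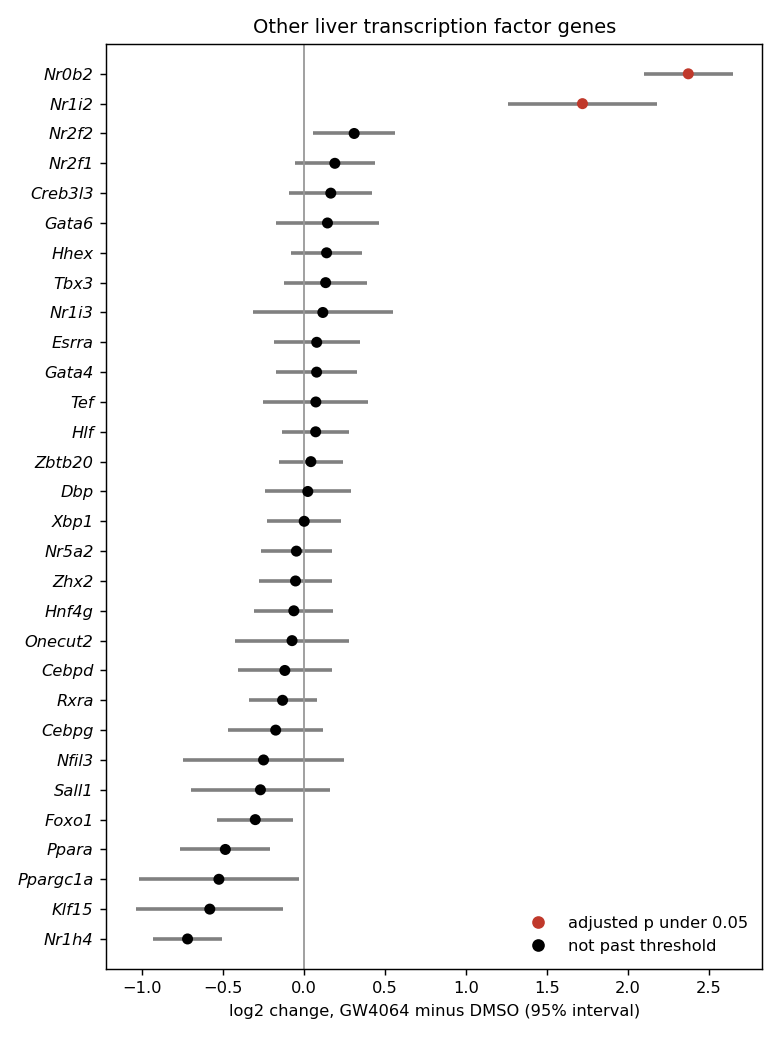
Log2 change, GW4064 minus DMSO, of 30 other liver transcription factor genes with limma's 95% intervals, red where the adjusted p over all genes was under 0.05. Nr0b2 at 2.37 and Nr1i2 at 1.72 are the red points, and Nr1h4 at -0.72 is the lowest.

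No gene of the list that depends on HNF4A in liver was called. Of 38 listed, 35 were measured. Fabp1, Rdh16, Slco1b2, Acsm1, Hsd17b6 and Cyp8b1 lay below the median level of all genes, at percentiles 18.2, 29.1, 33.2, 35.55, 37.1 and 48.3. Of the 35, 14 were higher and 21 lower, where 55.4% of all genes were lower. The median change was -0.035, beside -0.016 over all genes. Limma called 0 of the 35, with or without the block, where 0.0812% and 0.0496% of all genes were called. Before adjustment it gave 2 higher and 0 lower with a p under 0.05, beside 2.6% and 3.06% of all genes. Those 2 were Abcg5 and Abcg8, partners in the sterol exporter. Abcg5 measured 5.79, 5.74 and 5.36 with GW4064, against 5.18, 5.23 and 5.07 with DMSO (change 0.47, SE 0.13, adjusted p = 0.641). Abcg8 measured 5.61, 5.74 and 5.64 with GW4064, against 5.27, 5.39 and 5.46 with DMSO (change 0.29, SE 0.096, adjusted p = 0.770). The groups of both were separate, higher with GW4064, a pattern that 4.58% of all genes showed. Both genes were named for the smallest p of the list, and both are also known as targets of other nuclear receptors. Serpinc1, the antithrombin gene, had 0.27 (SE 0.15) and Gjb1, the connexin gene of hepatocyte gap junctions, -0.18 (SE 0.13). Serpinc1 was 0.15 without DMSO replicate 3 and Gjb1 ranged from -0.28 without DMSO replicate 3 to -0.081 without GW4064 replicate 3. The apolipoprotein gene Apoc3 and the retinol carrier gene Ttr, textbook HNF4A targets named after their values were seen, had -0.020 (SE 0.10) and -0.087 (SE 0.12).

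Genes with FOXA sites in liver, 13 measured of 16 with Foxa2 itself among them, were lower in 11 and higher in 2, with a median of -0.087, where 55.4% of all genes were lower. Limma without the block gave 1 higher and 1 lower at p under 0.05 before adjustment, beside 2.6% and 3.06% of all genes. It called 0 without the block and 1 with it, beside 0.0496% and 0.0812% of all genes. The call was Pck1, the gene of the cytosolic enzyme that opens gluconeogenesis, which measured 6.02, 7.13 and 7.91 with GW4064, against 4.44, 4.94 and 6.29 with DMSO. The change was 1.80 (SE 0.53, adjusted p = 0.689, and 0.0288 with the replicate block), and GW4064 replicate 1 lay below DMSO replicate 3, so the groups overlapped. The differences within pairs 1, 2 and 3 were 1.58, 2.20 and 1.63. Tdo2, of tryptophan breakdown, had -0.68 (SE 0.24), Igfbp1, the insulin-repressed binding protein gene, -0.56 (SE 0.28) and Cpt1a, of fatty acid entry into mitochondria, -0.21 (SE 0.12), none past the threshold in either fit. With arrays or pairs left out, Tdo2 ranged from -0.89 to -0.42 (without DMSO replicate 3), Igfbp1 from -0.80 to -0.24 (without GW4064 replicate 2) and Cpt1a from -0.29 to -0.11 (without GW4064 replicate 3).

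Genes with C/EBP sites in liver, 17 measured of 19, were higher in 7 and lower in 10, where 55.4% of all genes were lower. Their median was -0.11. This list shares Alb, Pck1, Cps1, Tat and Tdo2 with the FOXA list, so its 1 call with the block was again Pck1. Cps1 and Tat are also in the HNF4A list. The FOXA list shares Ttr and Apob with the HNF4A list too, and Afp with the fetal list. The medians of these lists are therefore not independent. Over all genes the fit with the block called 0.0812%. Without the block limma called 0 of the list, beside 0.0496% of all genes. It gave 1 higher and 2 lower at p under 0.05 before adjustment, beside 2.6% and 3.06% of all genes. Crp, an acute phase gene, measured 8.78, 8.53 and 8.72 with GW4064, against 8.94, 8.79 and 9.15 with DMSO (change -0.28, SE 0.12, adjusted p = 0.863). Hamp, the hepcidin gene of iron control, measured 10.48, 10.29 and 9.32 with GW4064, against 9.71, 9.42 and 7.83 with DMSO. Its change of 1.04 (SE 0.46, adjusted p = 0.884, and 0.138 with the block) was positive in all 3 pairs, with replicate 3 lowest in both groups. Without DMSO replicate 3 it was 0.46.

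No gene of the fetal liver list was called. Of 12 listed, 10 were measured, 3 higher and 7 lower, with a median of -0.11, where 55.4% of all genes were lower. Gpc3, Lin28b, Dlk1, Igf2bp3, Mest and Igf2 lay below the median level of all genes, at percentiles 18.3, 20.5, 31.9, 32.9, 40.0 and 43.0. Limma called 0 with and without the block, where 0.0812% and 0.0496% of all genes were called. Before adjustment it gave 0 higher and 1 lower at p under 0.05, beside 2.6% and 3.06% of all genes. The 1 was the fatty acyl ligase gene Acsl4, at -0.29 (SE 0.099, adjusted p = 0.789). The imprinted genes Mest and Igf2 had -0.26 (SE 0.13) and -0.14 (SE 0.18), and the surface antigen gene Cd24a had -0.31 (SE 0.40), the last 2 with a sign that turned when arrays were left out. Mest was -0.17 without GW4064 replicate 3. Afp, alpha-fetoprotein, named after its value was seen, had -0.14 (SE 0.19).

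**Figure D4:**
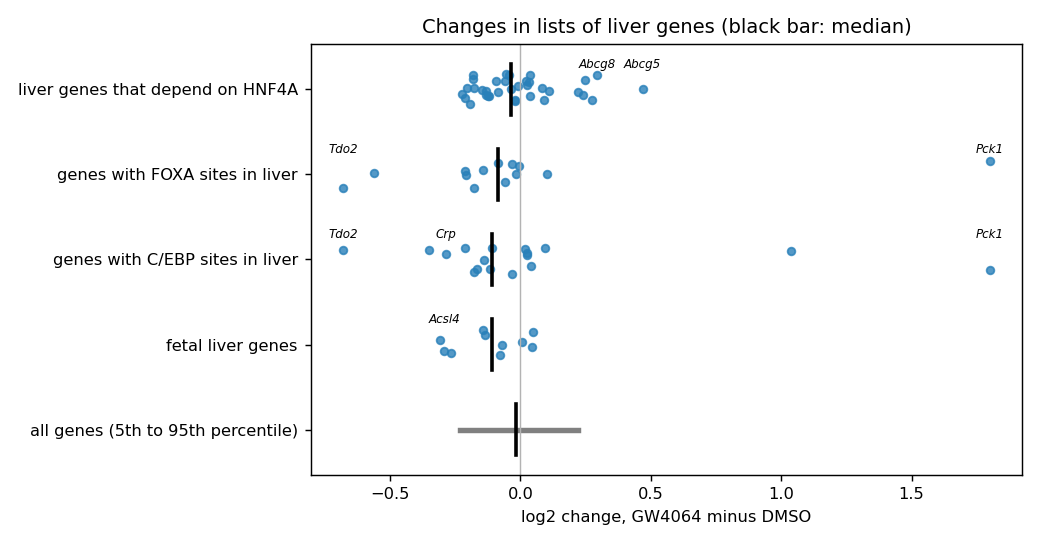
Log2 change, GW4064 minus DMSO, of the measured genes of 4 lists (blue points, jittered vertically), with black bars for medians, and for all genes a grey bar from the 5th to the 95th percentile (-0.23 to 0.22). Genes with an unadjusted p under 0.05 are named. Medians lie between -0.11 and -0.035, and Pck1 at 1.80 stands far right. The lists share some genes, so their medians are not independent.

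Markers of other cells were read beside these values. The summed level of the cholangiocyte list (log2 of the summed intensities of 5 genes) was 7.96 to 8.44 with GW4064 and 7.67 to 8.01 with DMSO, with 4 of 5 genes higher. Sox9, a biliary and progenitor factor, had the largest of these, 0.45 (SE 0.17, limma adjusted p = 0.858), and was higher in all 3 pairs. It was also the brightest of the list, with means of 7.76 with GW4064 and 7.31 with DMSO, so the sum mostly repeats Sox9. Krt19 and Krt7 had changes of 0.11 each. The mean log2 level of the 5 genes was 4.39 to 4.61 with GW4064 and 4.37 to 4.49 with DMSO. Sox9, Krt19 and Krt7 lay at percentiles 87.5, 60.4 and 59.0 of all genes, and Epcam and Cftr at 20.1 and 10.1. The 2 ranges of summed levels overlapped narrowly. The summed levels of the other lists also overlapped between the groups, at 13.87 to 13.97 with GW4064 and 13.95 to 13.98 with DMSO for hepatocyte markers, and 8.72 to 10.03 with GW4064 and 8.81 to 10.11 with DMSO for Kupffer cells and macrophages. The Kupffer cell and macrophage sum was mostly Cd68, at 9.86, 8.46 and 9.93 with GW4064 and 9.63, 8.53 and 10.02 with DMSO. The mean log2 level of those 7 genes was 4.12 to 4.31 with GW4064 and 4.19 to 4.31 with DMSO. Summed levels were 7.26 to 7.37 with GW4064 and 7.29 to 7.36 with DMSO for stellate cells and fibroblasts. For endothelial cells they were 7.53 to 8.04 with GW4064 and 7.50 to 8.03 with DMSO. The part of other cell types in the Hnf4a difference was not tested.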

How the data were processed

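Expression was measured on 6 arrays, 3 per group. The authors deposited 1 log2 intensity per probe set and array. RMA and Partek are named, per the submitters' processing notes, with no version. Log2 was inferred from the range of these values, 0.94 to 13.07, since no label states the base. The genome build behind the deposited values is not given in the sources used here, and GRCm38.p6 is the build of the RefSeq promoter table alone.

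The platform annotation gives 23521 of 41345 probe sets exactly 1 gene symbol, 1814 several and 16010 none. The probe set with the highest mean was kept per gene, which left 22180 genes. GW4064 minus DMSO was fitted over all genes with limma 3.58.1 (lmFit, eBayes) in R 4.3.3, without a block, with Benjamini-Hochberg adjustment over all genes and a threshold of 0.05. SE and 95% intervals are limma's. Ratios between family members were tested by exact permutation. The fits were tested on simulated data.

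Same-numbered arrays deviated together from their group means, with correlations over genes of 0.26, 0.34 and 0.45 for replicates 1, 2 and 3, all above the preset 0.1. The numbers come from the titles. The design text names 3 independent preparations, and no label ties a number to one. A fit with the replicate number as a block was therefore run as well.

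The members and lists were chosen with earlier results of these data known. Named genes are the 8 members, Abcb11 and Nr0b2, up to 4 genes of each of 5 lists with the smallest p, and the 5 genes closest in profile to Hnf4a. Other genes are named as said beside them. Alternatives were quantile normalization, median centring, filters at the 25th percentile and at the median of level, trended and robust variance priors, all probe sets, and leaving out arrays or pairs. Every member has a single probe set, so no other could be tried. The number of arrays limits the precision.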

Additional observations from a re-analysis of the deposited data

How the results depend on the processing

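Limma called 0 of the 8 members under each of the 17 alternatives, the replicate block included, and Hnf4a, Foxa3 and Cebpa kept their direction in all 17. The count over all genes was 11, and it was 18 with the replicate block, 2 over all probe sets and 2 to 5 with arrays or pairs left out. The count among other liver transcription factors was 2, and it was 1 over all probe sets, 1 to 2 with arrays or pairs left out, and 3 with the filter at the median and with trended or robust priors. The counts for genes with FOXA sites and with C/EBP sites were 0, and 1 each with the replicate block. The block changed no call among the members. With arrays or pairs left out, changes whose sign turned ranged from -0.10 to 0.12 for Foxa1, -0.050 to 0.016 for Foxa2, -0.22 to 0.031 for Cebpb, -0.22 to 0.015 for Onecut1, -0.014 to 0.13 for Prox1, -0.77 to 0.00048 for Cd24a and -0.41 to 0.047 for Igf2. Quantile normalization gave Foxa2 0.013. Cebpa minus Cebpb ranged from -0.17 to 0.018 and Foxa1 minus Foxa2 from -0.078 to 0.16. The causes of these changes were not tested. Leaving out arrays or pairs brings fewer arrays, and the setting with all probe sets brings a larger number of probe sets. The replicate block gave the 4 ratios the same differences, with exact paired p-values that cannot fall below 0.25. No detection calls were used, so signal over background limits low values to an unknown degree. The filter at the median left out Mest and Igf2, which have no value there.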
